A study of Homo sapiens with 6 samples.

Results

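The 37 genes described here encode enzymes that oxidise fatty acids in peroxisomes and mitochondria, together with the enzymes that activate fatty acids and the kinase gene PDK4. They were chosen by gene name as genes of the pathway, with earlier results of these data known. All 37 were among the 59332 gene symbols of the deposited table. Of these, 35 were expressed at 1 FPKM or more in at least 3 of 6 libraries and were tested, as were 14106 genes in all. ACSL6 and ACADL stayed below that level. FPKM is the number of sequenced fragments scaled by transcript length and by the library's total.

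All libraries were made from SW480 cells, a human line derived from a colorectal cancer, grown in RPMI1640 medium with serum and antibiotics. The compared groups were 3 libraries of SW480 cells overexpressing HNF4A (titles sw480_lenti-HNF4a1 to 3) and 3 control libraries (titles sw480_lenti1 to 3), named by the submitters as biological replicates. The titles of both groups carry the word lenti, while no label names the construct's promoter, the HNF4A isoform, or whether the cells were 1 clone or a pool. Where the dishes of a group were grown from a single transduced population, the p-values measure only the spread between dishes, and the effect of HNF4A cannot be told apart from other differences between the populations.

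Fatty acids are first joined to coenzyme A by acyl-CoA synthetases. Long chains then enter mitochondria as carnitine esters and are shortened in a repeating cycle of dehydrogenation, hydration, a further dehydrogenation and thiolysis. The electrons of the first dehydrogenation are passed on through electron transfer flavoprotein. Peroxisomes run a parallel cycle on very long, branched and bile-acid precursor chains, where an oxidase that makes hydrogen peroxide takes the first step. HNF4A is a nuclear receptor of liver and intestinal epithelium, and the genes of both routes are well known to respond in liver to nuclear receptors of the PPAR family.

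HNF4A was at 1143, 720.6 and 852 FPKM in the overexpressing libraries, against 8.81, 6.57 and 7.47 FPKM in control, so each library matched its label (log2 change 6.70, SE 0.16, limma adjusted p = 9.93e-07). By exact permutation (two-sided) its p was 0.1, and 3 libraries against 3 can give none smaller, a limit that holds for every single gene below. The summed FPKM was 615594 to 652879 per overexpressing library and 628487 to 637244 per control library, and the read depth behind these values is unknown. Of 10 colorectal epithelial markers 7 were tested and 2 rose (CDH1 and VIL1), beside 3.4 percent of all tested genes that rose. In the fit with a replicate term, given at the end, 3 of these 7 rose and 2 fell. The 10 markers summed to 4781 to 5329 FPKM in overexpressing and 5318 to 6029 FPKM in control libraries, while KRT20, CEACAM5 and LGALS4 were below the level for testing. Of 12 hepatocyte markers only SERPINA1 was tested, and it rose. The hepatocyte sum, SERPINA1 included, was 105 to 115 FPKM in overexpressing and 76.6 to 83.0 FPKM in control libraries. Of the 12 markers 8 were below 0.1 FPKM in every library, with APOA2, APOH and FGA listed at 0 in all 6. The sum therefore says little about hepatocyte markers other than SERPINA1. Of 10 fibroblast and endothelial markers only COL1A1 was tested and did not pass (sums of 3.74 to 3.93 and 2.42 to 3.09 FPKM in overexpressing and control libraries, CDH5 listed at 0). Of 10 immune markers 2 were tested, CD68 rising and CD52 falling (sums of 4.98 to 6.12 and 3.85 to 4.98 FPKM in overexpressing and control libraries, PTPRC averaging 0.0287 and 0.0170 FPKM). The part of these markers in the results was not tested.

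For the genes the results turn on, the deposited FPKM values stand beside the promoter where RefSeq (GRCh38.p14) holds one. Windows ran from 250 bases before to 50 bases after a gene start and were found for 30 of the 37 genes. Those of ACAA1, ACOX2 and CRAT were not among them. The 2 windows of ACSL5, at chr10:112375018-112375317 and chr10:112375955-112376254 on the plus strand, are shown because ACSL5 passed the test in every fit described below. Capitals mark the 50 bases from the RefSeq gene start on. Both windows lie inside the ACSL5 gene as placed by GENCODE 29, which begins at 112374018.
ACSL5 start 1: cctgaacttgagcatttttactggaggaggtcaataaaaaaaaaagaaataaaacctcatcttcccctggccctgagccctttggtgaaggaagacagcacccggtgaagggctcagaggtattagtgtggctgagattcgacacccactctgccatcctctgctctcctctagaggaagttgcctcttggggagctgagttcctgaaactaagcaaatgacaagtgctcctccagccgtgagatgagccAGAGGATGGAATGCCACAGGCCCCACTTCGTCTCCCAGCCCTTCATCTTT
ACSL5 start 2: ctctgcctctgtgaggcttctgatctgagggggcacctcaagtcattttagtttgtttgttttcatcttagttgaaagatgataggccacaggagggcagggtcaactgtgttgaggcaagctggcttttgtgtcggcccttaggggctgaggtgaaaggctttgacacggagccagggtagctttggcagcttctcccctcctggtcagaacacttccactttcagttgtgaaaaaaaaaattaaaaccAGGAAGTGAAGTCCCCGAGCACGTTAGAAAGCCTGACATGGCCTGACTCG
The window of HADHA, at chr2:26244583-26244882 on the minus strand, is shown because HADHA and HADHB, the alpha and beta subunit genes of the mitochondrial trifunctional protein, lie head to head. Capitals mark the 194 bases that also fall in the window of HADHB at chr2:26244689-26244988 on the plus strand.
HADHA: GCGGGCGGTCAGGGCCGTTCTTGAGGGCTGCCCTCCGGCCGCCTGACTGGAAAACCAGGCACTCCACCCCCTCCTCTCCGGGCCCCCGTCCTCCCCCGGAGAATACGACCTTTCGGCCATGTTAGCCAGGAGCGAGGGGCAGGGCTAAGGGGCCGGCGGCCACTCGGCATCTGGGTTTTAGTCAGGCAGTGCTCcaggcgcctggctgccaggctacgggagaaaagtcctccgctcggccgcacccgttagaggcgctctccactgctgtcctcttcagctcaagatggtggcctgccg
The motifs CAAAGTCCA and CAAAGGTCA, which resemble sites of HNF4 and of direct-repeat nuclear receptors, were looked for on both strands. None of the 47 windows of these genes held either, so these letters are not in the windows searched. Of all 35116 windows 0.384 and 0.407 percent held them. At such low rates their absence from 47 windows was the likely outcome and says little about these genes.

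Across the pathway 4 of 35 tested genes rose in HNF4A overexpression and 0 fell (limma on log2(FPKM + 1) with Benjamini-Hochberg adjustment over all tested genes, threshold 0.05). These were ACAA1, ACSL5, CRAT and ACOX2. The share of 11.4 percent that rose stands beside 3.4 percent of all tested genes that rose and 1.39 percent that fell. The members were chosen with earlier results of these data known, so this share is no test of the pathway. At an unadjusted p under 0.05, 9 of the 35 were higher and 0 lower, beside 10.8 percent of all tested genes higher and 7.29 percent lower. The median log2 change was 0.09 over the 35 genes and 0.01 over all tested genes. In bulk RNA a lower or higher level per cell and a lower or higher number of cells of a kind cannot be told apart.

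**Figure D1:**
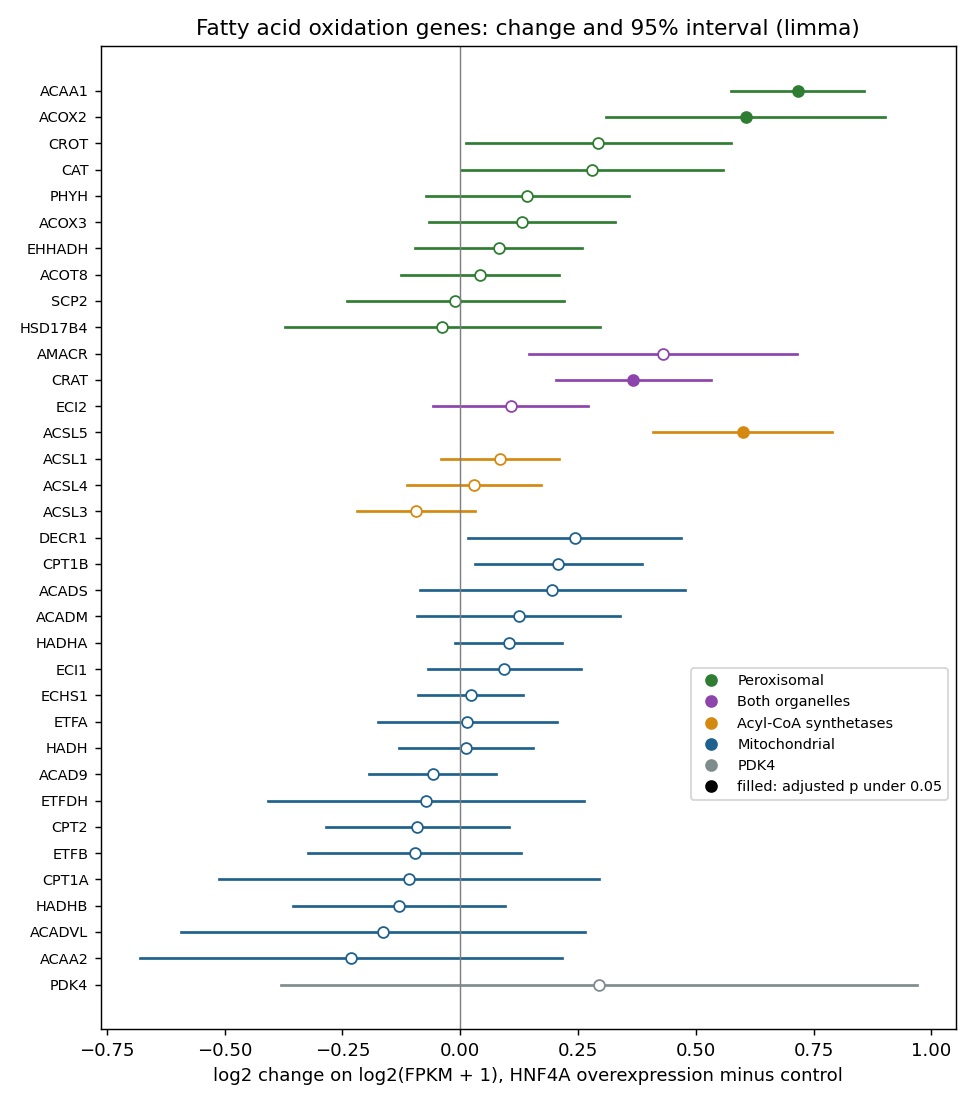
Log2 change on the log2(FPKM + 1) scale, HNF4A overexpression minus control, for the 35 tested genes, with 95% intervals from limma. Filled points passed the adjusted threshold and colours give the role, with the 17 tested mitochondrial genes in blue, around a median of 0.01, and ACAA1 in the first line with 0.72.

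The peroxisomal enzymes held the largest change. ACAA1, the peroxisomal thiolase that cleaves the chain at the end of each cycle, was at 55.1, 48.2 and 49.3 FPKM in the overexpressing libraries and at 31.1, 30.6 and 29.8 FPKM in the control libraries. The groups did not overlap and every overexpressing library stood far above every control library. The mean ratio was 1.67, the log2 change 0.72 (SE 0.06) and the limma adjusted p 9.56e-04. The gene lies on chromosome 3 from 38103129 to 38137242 on the minus strand (GRCh38, GENCODE 29) and overlaps DLEC1 on the other strand. No source used here says whether counting used strand, so shared fragments cannot be told apart.

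ACOX2, the oxidase of branched chains and bile acid precursors, was low throughout, at 1.68, 1.71 and 1.80 FPKM in the overexpressing libraries and at 0.572, 0.766 and 1.08 FPKM in the control libraries. The groups did not overlap, and the control libraries were the more spread. Its log2 change was 0.61 (SE 0.13, limma adjusted p = 0.0370), a scale that understates the change of a gene near 1 FPKM, and the mean ratio was 2.15. When libraries were left out in turn it passed only without control replicate 3 (limma adjusted p = 0.0332), with 0.0982 to 0.108 in the other fits. ACOX2 lies on chromosome 3 from 58505136 to 58537319 on the minus strand and overlaps AC116036.1 on the other strand.

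**Figure D2:**
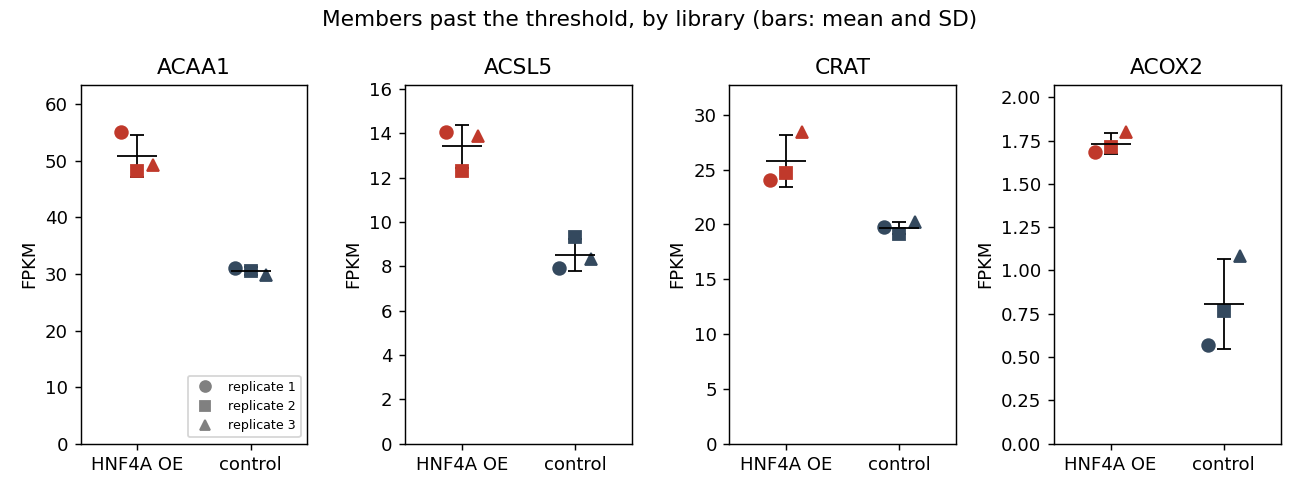
FPKM (linear axis from 0) of ACAA1, ACSL5, CRAT and ACOX2 in each library, HNF4A overexpression at left and control at right, with the mean and SD of 3 libraries as bars. In all 4 genes every overexpressing library lies above every control library, with ACAA1 averaging 50.9 against 30.5 FPKM.

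Of the other 8 peroxisomal genes 0 passed. CROT, which hands shortened chains to carnitine for export, was at 9.80, 9.52 and 10.7 FPKM in the overexpressing libraries and at 6.43, 8.33 and 9.45 FPKM in the control libraries (log2 change 0.29, SE 0.12, limma adjusted p = 0.256). Its groups just failed to overlap. CAT, the catalase that removes the hydrogen peroxide, was at 13.8, 16.9 and 15.6 FPKM in the overexpressing libraries and at 10.3, 14.3 and 13.2 FPKM in the control libraries (log2 change 0.28, SE 0.12, limma adjusted p = 0.271). Its groups overlapped, and in both of them replicate 1 was lowest and replicate 2 highest.

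The remaining peroxisomal members had log2 changes of -0.04 to 0.14, and 0 of them passed. The oxidase gene ACOX3 averaged 4.61 ± 0.158 FPKM in overexpression and 4.12 ± 0.363 FPKM in control (SD, n = 3 each). PHYH, the hydroxylase that starts the breakdown of phytanic acid, averaged 12.4 ± 0.736 and 11.2 ± 1.37 FPKM in overexpression and control. EHHADH and HSD17B4, the L- and D-specific bifunctional enzymes of the middle steps, averaged 6.71 ± 0.161 and 32.6 ± 5.93 FPKM in overexpression, against 6.29 ± 0.477 and 33.4 ± 5.51 FPKM in control. SCP2, a thiolase and sterol carrier of branched chains, averaged 28.1 ± 2.39 FPKM in overexpression and 28.4 ± 3.70 FPKM in control. ACOT8, a thioesterase that frees the acid from coenzyme A, averaged 34.3 ± 2.64 FPKM in overexpression and 33.2 ± 2.19 FPKM in control. The 95% interval of the log2 change ran from -0.37 to 0.30 for HSD17B4, from -0.24 to 0.22 for SCP2 and from -0.13 to 0.21 for ACOT8.

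Of the 3 enzymes known from both organelles 1 rose. Over so few genes this cannot be told apart from the 3.4 percent of all tested genes that rose. CRAT, the acetyl transferase of carnitine, was at 24.0, 24.7 and 28.5 FPKM in the overexpressing libraries and at 19.8, 19.1 and 20.2 FPKM in the control libraries. The groups did not overlap, with overexpression replicate 3 highest. The log2 change was 0.37 (SE 0.07, limma adjusted p = 0.0269) and the mean ratio 1.31. Among the fits that left out 1 library CRAT passed only without overexpression replicate 1 (limma adjusted p = 0.0391), with 0.0547 to 0.0913 in the others. It lies on chromosome 9 from 129094810 to 129111189 on the minus strand and overlaps PTPA and AL158151.2 on the other strand.

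AMACR, the racemase that prepares branched chains for oxidation, was at 5.99, 5.27 and 7.49 FPKM in the overexpressing libraries and at 4.78, 3.88 and 4.40 FPKM in the control libraries. The groups did not overlap, yet the gene did not pass (log2 change 0.43, SE 0.12, limma adjusted p = 0.1004). It shares its strand with the readthrough gene C1QTNF3-AMACR, and fragments of the 2 cannot be told apart. ECI2, an isomerase that moves double bonds into place, averaged 30.0 ± 1.74 FPKM in overexpression and 27.8 ± 2.19 FPKM in control (limma adjusted p = 0.507).

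Of the 4 tested acyl-CoA synthetases, which activate long chains, 1 rose. This count, too, cannot be told apart from the 3.4 percent of all tested genes that rose. ACSL5, the member best known from intestinal epithelium and mitochondria, was at 14.1, 12.3 and 13.9 FPKM in the overexpressing libraries and at 7.92, 9.33 and 8.32 FPKM in the control libraries. The groups did not overlap. The mean ratio was 1.57 and the log2 change 0.60 (SE 0.08, limma adjusted p = 0.00601). It lies on chromosome 10 from 112374018 to 112428380 on the plus strand and overlaps ZDHHC6 and AL157786.1 on the other strand.

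ACSL1, the main synthetase of liver and fat, was at 27.4, 25.6 and 25.4 FPKM in the overexpressing libraries and at 25.3, 24.3 and 24.2 FPKM in the control libraries. The groups just failed to overlap, and ACSL1 did not pass (log2 change 0.09, limma adjusted p = 0.481). ACSL3, a synthetase of lipid droplets and the endoplasmic reticulum, was at 17.0, 16.04 and 16.3 FPKM in the overexpressing libraries and at 17.5, 17.8 and 17.5 FPKM in the control libraries (log2 change -0.09, limma adjusted p = 0.426). It was the 1 tested member whose libraries were all lower in overexpression. Over all tested genes 13.8 percent had every overexpressing library above every control library and 10.1 percent every one below, against 9 and 1 of the 35 members. ACSL4, which prefers arachidonic acid, had the highest level of the family, 40.3 ± 1.504 FPKM in overexpression and 39.5 ± 2.66 FPKM in control. ACSL6 was at 0.397 to 0.636 FPKM in overexpression and at 0.172 to 0.486 FPKM in control, below the level for testing.

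The members classed here as mitochondrial alone showed no call in either direction. This class leaves out ACSL5 and CRAT, which rose and are also known from mitochondria but were grouped by other roles above. Of 18 members 17 were tested and 0 passed (limma), 9 with a higher and 8 with a lower mean in overexpression. Over all tested genes 3.4 percent rose and 1.39 percent fell, so 0 calls among 17 cannot be told apart from these shares. The unadjusted limma p was under 0.05 for CPT1B and DECR1, both higher, or 11.8 percent beside 10.8 percent of all tested genes. The median log2 change of the 17 was 0.01, equal to that of all tested genes, and their changes ran between -0.23 and 0.24. For comparison, the median was 0.14 over the 10 peroxisomal genes. No test of the difference between the organelles was made.

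CPT1A and CPT1B attach long chains to carnitine at the outer mitochondrial membrane and set the rate of entry. CPT1A, the liver form, was at 28.1, 40.9 and 28.0 FPKM in the overexpressing libraries and at 31.0, 43.7 and 30.0 FPKM in the control libraries (log2 change -0.11, SE 0.18, limma adjusted p = 0.818). Within each group replicate 2 stood well above the other libraries, by more than the groups differed. CPT1B, the muscle form, was at 8.79, 9.30 and 8.003 FPKM in the overexpressing libraries and at 7.65, 7.48 and 7.03 FPKM in the control libraries (log2 change 0.21, SE 0.08, limma adjusted p = 0.199). The groups did not overlap, and the gene shares its strand with the readthrough gene CHKB-CPT1B. CPT2, which reverses the transfer inside, averaged 7.16 ± 0.327 FPKM in overexpression and 7.71 ± 0.745 FPKM in control.

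Among the acyl-CoA dehydrogenases, which take the first step and are named by chain length, ACADVL was by far the most abundant member of the pathway. It was at 290.0, 464 and 298 FPKM in the overexpressing libraries and at 350, 468 and 345 FPKM in the control libraries (log2 change -0.16, SE 0.19, limma adjusted p = 0.733). The overexpressing libraries 1 and 3 lay below all controls, but replicate 2 was nearly equal in both groups. ACADM, for medium chains, averaged 22.3 ± 2.22 and 20.4 ± 2.03 FPKM in overexpression and control, and ACADS, for short chains, 3.71 ± 0.493 and 3.12 ± 0.527 FPKM. ACAD9, which also assembles respiratory complex I, averaged 25.1 ± 0.389 FPKM in overexpression and 26.2 ± 1.57 FPKM in control. ACADL was at most 0.140 FPKM in overexpression and 0.0567 FPKM in control.

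Among the enzymes of the later steps, 0 passed. HADHA was at 69.5, 70.03 and 72.2 FPKM in the overexpressing libraries and at 63.1, 69.0 and 65.0 FPKM in the control libraries (log2 change 0.10, SE 0.05, limma adjusted p = 0.332). The groups just failed to overlap. Its partner HADHB, which shares most of the promoter window printed above, had means that differed the other way, 51.3 ± 6.45 FPKM in overexpression and 56.1 ± 5.18 FPKM in control (log2 change -0.13, limma adjusted p = 0.563). HADHA and HADHB overlap each other on opposite strands, and HADHA has the named pseudogenes HADHAP1 and HADHAP2. Fragments shared between these genes cannot be told apart here. The short-chain hydratase gene ECHS1 averaged 85.1 ± 0.872 and 83.8 ± 3.94 FPKM in overexpression and control, and the dehydrogenase gene HADH 28.0 ± 1.35 and 27.7 ± 1.54 FPKM. For ECHS1 the 95% interval of the log2 change ran from -0.09 to 0.13.

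ACAA2, the mitochondrial counterpart of the thiolase ACAA1, was at 19.8, 29.9 and 22.7 FPKM in the overexpressing libraries and at 23.3, 38.0 and 25.0 FPKM in the control libraries (log2 change -0.23, SE 0.20, limma adjusted p = 0.615). Replicate 2 was again highest in both groups and the groups overlapped. The auxiliary enzymes for unsaturated chains did not pass either. DECR1, a reductase, was at 7.84, 6.41 and 7.47 FPKM in the overexpressing libraries and at 5.33, 6.48 and 6.06 FPKM in the control libraries (log2 change 0.24, SE 0.10, limma adjusted p = 0.239), and the groups overlapped through overexpression replicate 2. ECI1, an isomerase, averaged 33.1 ± 2.24 FPKM in overexpression and 31.0 ± 2.13 FPKM in control.

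The electron transfer flavoprotein genes ETFA and ETFB averaged 72.6 ± 6.72 and 136 ± 15.2 FPKM in overexpression, against 71.8 ± 6.47 and 146 ± 16.2 FPKM in control. ETFDH, the oxidoreductase that passes the electrons to ubiquinone, averaged 3.31 ± 0.697 FPKM in overexpression and 3.52 ± 0.620 FPKM in control. PDK4, a kinase that shuts pyruvate dehydrogenase when fatty acids are burned, was at 2.26, 5.25 and 4.16 FPKM in the overexpressing libraries and at 1.79, 4.63 and 2.62 FPKM in the control libraries (log2 change 0.29, SE 0.29, limma adjusted p = 0.685). Its libraries spread over more than its groups differed.

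**Figure D3:**
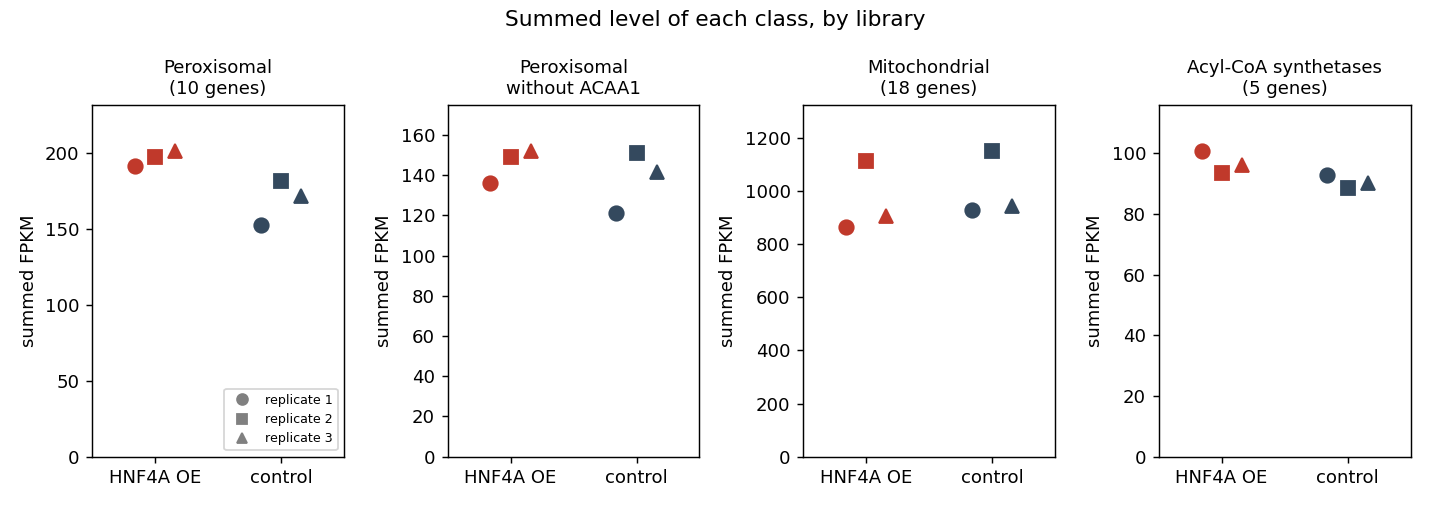
Summed FPKM (linear axis from 0) of each class of genes per library, HNF4A overexpression at left and control at right, with the marker shape giving the replicate number. The peroxisomal sum does not overlap between groups with ACAA1 and overlaps without it. The sum of the acyl-CoA synthetases also does not overlap, at 93.4 to 100.9 FPKM in overexpression and 88.6 to 92.9 FPKM in control. In the mitochondrial sum replicate 2 stands above replicates 1 and 3 in both groups.

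Summed over its 10 genes, the peroxisomal class held 191, 197 and 202 FPKM in the overexpressing libraries and 152, 182 and 172 FPKM in the control libraries. Without ACAA1 the sums were 136, 149 and 152 FPKM in overexpression and 121, 151 and 142 FPKM in control, which overlapped. The 3 enzymes known from both organelles summed to 59.9 to 64.2 FPKM in overexpression and 50.5 to 53.2 FPKM in control, without overlap. The 18 mitochondrial genes summed to 866, 1114 and 905 FPKM in the overexpressing libraries and to 928, 1153 and 942 FPKM in the control libraries. ACADVL was the largest single term of the mitochondrial sums, and no test was made on the sums of any class.

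Many mitochondrial genes differed by replicate number in the same way in both groups. Replicate 2 was the highest library within both groups for 15 of the 35 tested members, or 42.9 percent, against 13.5 percent of all tested genes. Of the 17 tested mitochondrial enzymes 10 showed it, among them CPT1A, ACADVL, ACAA2, ACADS, ACADM and all 3 electron transfer genes. Replicate 1 was highest in both groups for 3 of the 35 members and replicate 3 for 6, beside 1927 and 2435 of all 14106 tested genes. PDK4 in replicate 2 was 1.64 times the mean of replicates 1 and 3 in overexpression and 2.10 times in control. The same ratio was 1.58 and 1.35 for ACADVL, 1.46 and 1.43 for CPT1A and 1.41 and 1.57 for ACAA2, in overexpression and control. These 4 members reached 1.3 times in both groups, as did 0.858 percent of all tested genes. HSD17B4, with ratios of 1.29 and 1.31, lay just outside. Of the called genes, ACAA1 had ratios of 0.923 and 1.003 and ACSL5 of 0.880 and 1.149 in overexpression and control. The labels do not say what a shared replicate number stands for, and fits with a replicate term and without replicate 2 are given at the end.

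**Figure D4:**
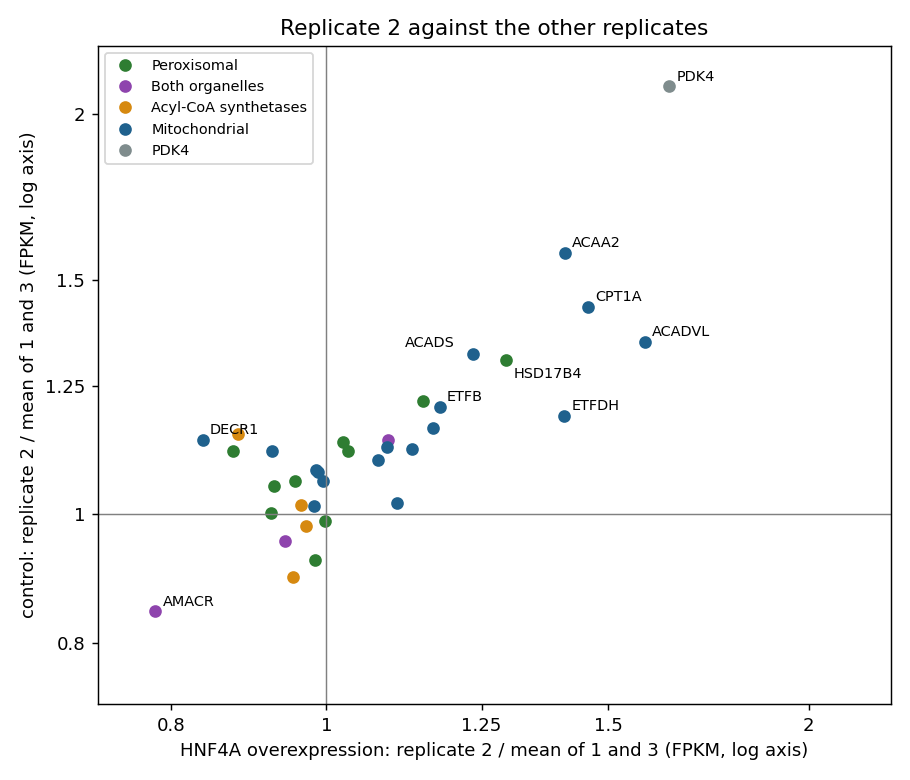
Ratio of replicate 2 to the mean of replicates 1 and 3 in the HNF4A overexpression libraries (horizontal) and the control libraries (vertical), both on log axes, 1 point per tested member, coloured by role. PDK4, ACADVL, CPT1A and ACAA2 lie at 1.3 or above on both axes.

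Genes around the pathway were read from 10 further lists, whose counts stand beside 3.4 percent of all tested genes that rose and 1.39 percent that fell. The lists were chosen with earlier results of these data known, so these counts are no test of a list. Of 28 tested peroxisomal transporters and other peroxisomal enzymes 4 rose and 0 fell. IDH1, the NADP-linked isocitrate dehydrogenase of cytosol and peroxisomes, averaged 37.6 ± 1.99 FPKM in overexpression and 22.3 ± 4.10 FPKM in control (log2 change 0.74, limma adjusted p = 0.0121). SLC27A2, which activates very long chains, averaged 19.2 ± 2.95 and 13.002 ± 0.503 FPKM in overexpression and control (limma adjusted p = 0.0262). DECR2, the peroxisomal counterpart of DECR1, averaged 10.03 ± 0.247 and 7.29 ± 0.738 FPKM (limma adjusted p = 0.0268). PRDX5, a peroxidase of several organelles, averaged 78.9 ± 1.48 and 63.3 ± 4.47 FPKM (limma adjusted p = 0.0217). With 1 library left out IDH1 passed in all 6 fits. SLC27A2 passed in 2 of the 6, without overexpression replicates 1 or 3, with up to 0.0847 in the others. DECR2 and PRDX5 passed in 1, without control replicate 1, with up to 0.0907 and 0.0787 in the others.

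None of 16 tested peroxisome biogenesis genes passed (limma), and PEX5, the import receptor, averaged 26.1 ± 1.10 and 25.9 ± 0.613 FPKM and PEX10 25.9 ± 2.01 and 22.3 ± 0.785 FPKM in overexpression and control. Of 14 tested regulators 1 rose, the nuclear receptor corepressor gene NRIP1, with 3.60 ± 0.553 FPKM in overexpression and 1.91 ± 0.174 FPKM in control (limma adjusted p = 0.0162, lost without control replicate 2 at 0.0603 or control replicate 3 at 0.0566). PPARA averaged 3.93 ± 0.629 and 3.23 ± 0.138 FPKM and did not pass (limma adjusted p = 0.354). Among 18 tested uptake, binding and thioesterase genes, DBI, the acyl-CoA binding protein, rose and FABP3, a fatty acid binding protein of muscle, fell. DBI averaged 135 ± 7.72 and 110 ± 2.38 FPKM (limma adjusted p = 0.0176, lost without control replicate 1 at 0.0636 or 3 at 0.0606). FABP3 averaged 7.04 ± 0.771 FPKM in overexpression and 15.2 ± 3.25 FPKM in control (log2 change -1.0008, limma adjusted p = 0.00601).

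In each of 3 further lists 1 gene rose and 0 fell, which over so few genes cannot be told apart from the 3.4 percent over all tested genes. It was HIBADH, of valine breakdown, among 26 tested genes of branched and odd chains (31.8 ± 2.35 and 23.9 ± 1.73 FPKM in overexpression and control, limma adjusted p = 0.0222). It was the lipase gene LIPE among 13 of lipid droplets and lipolysis (7.48 ± 0.330 and 5.56 ± 0.250 FPKM, limma adjusted p = 0.0289), and the mitochondrial IDH2 among 17 of the citrate cycle (25.3 ± 0.525 and 20.5 ± 0.662 FPKM, limma adjusted p = 0.0203). LIPE passed in 0 of the 6 fits without 1 library (limma adjusted p of 0.0644 to 0.101). HIBADH passed in 2, without overexpression replicate 2 or control replicate 2 (up to 0.0775 in the others), and IDH2 in 2, without overexpression replicate 3 or control replicate 2 (up to 0.0716 in the others). None of 11 tested genes of carnitine supply and malonyl-CoA control passed, nor of 7 of ketone bodies or 12 of pyruvate dehydrogenase and its regulators (limma). In these lists SLC25A29, a mitochondrial carrier, averaged 34.2 ± 0.9748 and 30.9 ± 2.05 FPKM, PRKAA1, a catalytic subunit of AMPK, 26.0 ± 1.43 and 27.6 ± 1.19 FPKM, and SLC16A1, a monocarboxylate transporter, 66.8 ± 1.66 and 75.3 ± 5.38 FPKM in overexpression and control. ACAT1, the mitochondrial acetoacetyl-CoA thiolase, averaged 48.7 ± 1.67 and 46.6 ± 1.54 FPKM, the pyruvate dehydrogenase subunit gene PDHA1 147 ± 4.95 and 146 ± 10.9 FPKM, and its phosphatase gene PDP1 65.6 ± 3.50 and 64.7 ± 3.77 FPKM.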

How the data were processed

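RNA-seq was run as paired-end Illumina NovaSeq sequencing, per the labels' protocols, in 6 libraries of SW480 cells. The authors deposited 1 table of FPKM values, already scaled by transcript length and library total. Cufflinks, TopHat, TopHat2, Bowtie, Bowtie2, FastQC and the build hg38 are listed, per the submitters' processing notes, with no version or role. Groups and replicate numbers came from the sample titles, and table columns were matched to them by name. Read depth is unknown, so no counting interval or floor is given.

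For each of the 215 symbols that occurred repeatedly, only the row of highest mean FPKM was kept. Genes with at least 1 FPKM in at least 3 libraries were tested as log2(FPKM + 1) with limma 3.58.1 in R 4.3.3 (lmFit and trended eBayes, with no term but the group), with Benjamini-Hochberg adjustment over all tested genes and a threshold of 0.05. The test was tried on simulated data, drawn independently from its own fitted variances and without a replicate effect. That trial therefore says nothing about effects shared by libraries of the same number. Positions came from GENCODE 29 and promoters from RefSeq.

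The members, their roles and the 10 lists of other genes and 4 marker lists were chosen with earlier results of these data known. The named genes follow a rule. Members past the adjusted or unadjusted threshold, or with groups that did not overlap, are given by library. CPT1A, ACAA2, ACADVL and PDK4 were also given by library, and the means of further members, after their values were seen. Other lists are given by up to 5 called genes, or by the 2 most abundant where none was called. PPARA, PLIN2 and the genes called with a replicate term alone, beyond this rule, were named after their values were seen. The 1.3-fold limit for replicate 2 was set after the data were seen. Alternatives were another pseudocount, no filter, 3 other scalings, summed rows, no trend, a replicate term and leaving out libraries.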

Additional observations from a re-analysis of the deposited data

How the results depend on the processing

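HNF4A kept its direction and call in every alternative run, and 0 members fell in any of them. ACAA1 and ACSL5 rose in each of the 15 alternatives. The count of 4 members that rose was 4 with a pseudocount of 0.1, with median-of-ratios scaling, after rescaling to TPM and with summed rows, and 3 with quantile normalization or without the mean-variance trend. It was 2 without the filter on low values, 2 to 3 when 1 library was left out, and 2 without replicate 2 of both groups, an alternative added after seeing the data. Without the filter 201 of all genes rose and 49 fell. Of the called genes in the 10 lists of other genes only IDH2 kept its call without the filter, with limma adjusted p of 0.106 for IDH1 and 0.0736 for FABP3. IDH1 also lost its call without replicate 2 of both groups (limma adjusted p = 0.0519). Leaving out 1 library gave 274 to 313 higher and 87 to 161 lower genes, and leaving out replicate 2 of both groups 144 higher and 26 lower, with fewer samples in each fit.

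The labels do not say whether the replicate numbers pair the libraries. Across all tested genes, which are not independent, deviations from the group means correlated at 0.139, 0.0914 and 0.15 for same-numbered libraries. Across the 35 tested members they correlated at 0.715, 0.823 and 0.526. Over both sets of genes every library correlated best with its own number. With the replicate block 5 members rose, CAT being added (limma adjusted p = 0.0488), and 638 of all genes rose and 399 fell, against 480 and 196 without it. Of the 676 genes called without the block 655 were called with it, and it changed no other member's call. In the 10 lists of other genes the block added 3 higher calls (PAOX, MPV17 and ACADSB) and 3 lower calls, of PPARD (limma adjusted p = 0.0382), ACSS2 (0.0451) and PLIN2 (0.00364), and removed 0. Of the alternatives for single members, 508 kept the call or its absence and 16 lost a call. Most of the 508 were of the 31 members not called in the main fit, where a change of sign without a call counted as kept. All 16 losses were of ACOX2 and CRAT, each of which passed in only 1 of the 6 fits that left out 1 library. FPKM values keep no counts, so the depth behind genes near 1 FPKM such as ACOX2 is unknown.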

Other observations

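PLIN2, the lipid droplet coat gene, was at 14.1, 24.9 and 18.1 FPKM in the overexpressing libraries and at 24.2, 41.3 and 27.4 FPKM in the control libraries. Replicate 2 was highest in both groups, as in PDK4 and CPT1A, and the mean was lower in overexpression (log2 change -0.67, SE 0.23, limma adjusted p = 0.155), where PDK4 had the higher mean. Library by library, PLIN2 was lower in overexpression at each replicate number, by a log2 difference of -0.74, -0.71 and -0.57 in replicates 1, 2 and 3. It did not pass without a replicate term and passed as lower with one (limma adjusted p = 0.00364). PLIN2 was chosen after its values were seen.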
